A study of Mus musculus with 6 samples.

Results

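The genes of the major histocompatibility complex (MHC) and of antigen presentation were followed in femoral bone of mice that ran on a wheel or stayed sedentary. Members were taken from the deposited comparison table by symbol. Any symbol that starts with H2- was taken, with B2m, Tap1, Tap2, Tapbp, Psmb8, Psmb9, Cd74, Ciita and Nlrc5, and symbols with -ps were left out. The rule found 51 of the 55484 genes in the table: 2 classical class I genes, 8 H2-Q, 5 H2-T, 12 H2-M, 10 class II and 5 other H2 genes, and 9 genes for the light chain, peptide supply and regulation. All 6 libraries came from male wild-type C57BL/6 mice on normal chow that were housed singly, entered the experiment at 6 weeks of age and were 12 weeks old at the end. The sedentary group (3 mice) stayed sedentary, and the running group (3 mice) had 6 weeks of voluntary wheel running. The comparison asks which bone transcripts differ after running, in a study whose title concerns osteocytes, glucose metabolism and CCN1. The labels do not say how marrow was treated. The osteocyte markers Dmp1 (145 FPKM in sedentary mice) and Sost (47.4) were present, and so was the B cell gene Cd79a (101).

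Class I molecules show peptides from inside the cell to CD8 T cells. They pair a heavy chain from an H2-K, -D, -Q, -T or -M gene with beta-2 microglobulin (B2m), on peptides that the immunoproteasome cuts and the Tap transporter carries into the endoplasmic reticulum. Class II molecules show peptides taken up from outside to CD4 T cells, mainly on B cells, dendritic cells and macrophages. The invariant chain Cd74 guards their groove until H2-DM helps to exchange it for peptide. Bone marrow holds all of these cells, and nearly all nucleated cells carry class I.

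For each group the tables hold 1 pooled FPKM per gene, fragments relative to transcript length and library size, and the bounds of an interval set by the authors. Values of single mice are not in these tables, so spread between mice is unknown and the calls are those of the authors. The level of the interval is not stated in the file headers. A gene counts as called where the authors' deposited table has a q under 0.05. Log2 folds compare running with sedentary mice (positive where running is higher), computed here as a difference of log2(FPKM + 0.1). Where a gene's fragments drop in such whole tissue, fewer cells of a type and less RNA per cell cannot be told apart.

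H2-Q5 was the only member called. It fell to 0.202 of its sedentary level, from 51.1 to 10.3 FPKM. The other 33 tested members had log2 folds from -0.38 for H2-Eb2 to 0.28 for H2-Q1, and their intervals overlapped between the groups. The authors tested 34 members and called 0 higher and 1 lower, beside 69 (0.445%) higher and 77 (0.497%) lower among all 15508 tested genes. With q under 0.01 the counts of members were the same, beside 0.303% of all tested genes higher and 0.393% lower, and with q under 0.1 they were again the same, beside 0.638% and 0.587%. Calls whose intervals are also apart were 0 higher and 1 lower among members, and 0.123% and 0.322% among all tested genes. Intervals apart, whatever the q, were found for 1 member and for 0.574% of all tested genes. An unadjusted p under 0.05 was listed for 2 members, H2-Q5 and H2-Q10, both lower in running mice, against 876 of all tested genes (5.65%). Small negative folds were the more frequent ones. The median log2 fold of the 34 members was -0.08 with 26 negative, against -0.01 with 8028 of 15508 negative over all tested genes. With both groups rescaled to the same total FPKM, which adds 0.04 to every log2 fold, 20 of the 34 were negative and 14 positive. Over all tested genes this rescaling left 9201 of 15508 positive.

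The remaining 17 members were not tested by the authors, and their FPKM was between 0 and 0.319. In both groups 12 of them were listed at 0: H2-Q3, H2-T3, H2-M1, the 6 H2-M10 genes, H2-Pa, H2-Pb and H2-Bl. H2-Q2, H2-M2, H2-M5, H2-M11 and H2-Ea were above 0 in at least 1 group. H2-Ea is the table's symbol for a gene that GENCODE names H2-Ea-ps, a nonfunctional E alpha gene in this strain, with 0.0293 FPKM in the sedentary and 0.0310 in the running group.

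**Figure D1:**
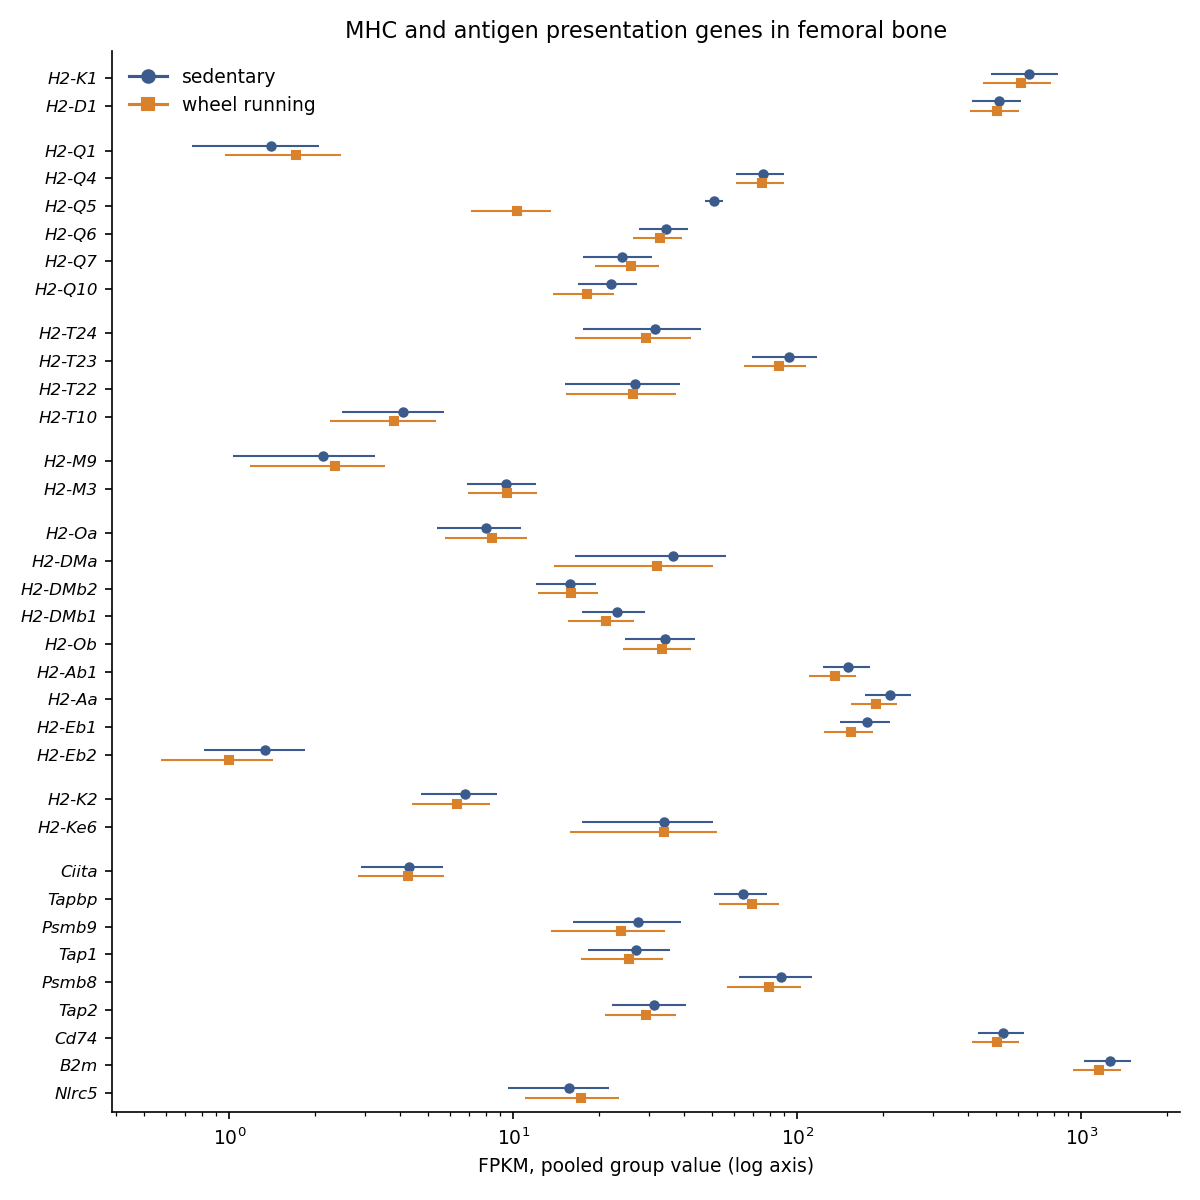
FPKM of 34 tested members (log axis), as 1 pooled value per group of 3 mice; circles are sedentary and squares wheel running mice, and lines span the authors' interval. H2-Q5 is the only member whose lines do not meet (47.3 to 54.9 against 7.11 to 13.5), while the others span about the same range in both groups.

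The plot of member levels shows a range from about 1 FPKM, for H2-Q1 and H2-Eb2, to over 1000 for B2m. H2-Q genes encode nonclassical class I heavy chains and lie in a row on chromosome 17, telomeric of H2-D1. H2-Q5 (ENSMUSG00000055413; chromosome 17, 35394126 to 35397800, plus strand, GRCm38) is a polymorphic pseudogene in GENCODE, a class for genes that are intact in some strains and broken in others. Its transcript H2-Q5-202 has 5 exons and 998 bases. Over the aligned stretch it is identical to the transcript of H2-Q7 at 96.5% of positions, to H2-Q6 at 94.6%, to H2-Q4 at 89.3%, to H2-K1 at 87.7% and to H2-Q10 at 87.5%. The reference H2-Q5 lacks 7 bases in exon 3, after transcript position 556, that the other 5 genes have. A gap of 7 bases is not a whole number of codons, so it shifts the reading frame there relative to those genes. The stretch around this gap is shown because it tells H2-Q5 from its neighbours. The windows lie in coding exon 3 at chr17:35394993-35395072 for H2-Q5, chr17:35440091-35440177 for H2-Q7, chr17:35425753-35425839 for H2-Q6, chr17:35380543-35380629 for H2-Q4 and chr17:35471008-35471094 for H2-Q10, all on the plus strand, and at chr17:33999278-33999364 on the minus strand for H2-K1 (GRCm38). Each is written 5′ to 3′ on the gene's own strand, and capitals mark bases that differ from H2-Q5 or that it lacks:
H2-Q5: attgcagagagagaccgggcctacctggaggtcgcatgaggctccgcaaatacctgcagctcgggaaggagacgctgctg
H2-Q7: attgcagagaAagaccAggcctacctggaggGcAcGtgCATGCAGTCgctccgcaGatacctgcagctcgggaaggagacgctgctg
H2-Q6: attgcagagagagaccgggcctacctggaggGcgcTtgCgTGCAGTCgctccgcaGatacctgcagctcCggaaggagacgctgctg
H2-Q4: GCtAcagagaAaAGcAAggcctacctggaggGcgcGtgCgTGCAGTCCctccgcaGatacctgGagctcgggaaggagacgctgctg
H2-Q10: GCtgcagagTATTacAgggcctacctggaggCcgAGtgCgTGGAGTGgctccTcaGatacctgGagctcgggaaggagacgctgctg
H2-K1: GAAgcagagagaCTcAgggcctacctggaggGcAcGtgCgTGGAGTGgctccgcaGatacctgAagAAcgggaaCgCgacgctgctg

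Outside the gap the window of H2-Q6 differs from H2-Q5 at 5 positions, that of H2-Q7 at 8, those of H2-Q4 and H2-Q10 at 14 each, and that of H2-K1 at 16. Long stretches of these genes are the same letters. Of the distinct 50-base stretches of the transcripts of H2-Q5, 36.4% also occur in transcripts of another gene, most often H2-Q7 (25.5%), and of its 100-base stretches 14.0% do. The other H2-Q genes share 15.0% (H2-Q1) to 32.0% (H2-Q6) of their 50-base stretches. No source used here gives how fragments that match several genes were assigned, so the split of fragments among the H2-Q genes is uncertain.

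The sedentary interval of H2-Q5 ran from 47.3 to 54.9 FPKM and the running one from 7.11 to 13.5, around a log2 fold of -2.30. The intervals lie far apart. Its test statistic in the authors' deposited table was -9.99, larger in size than that of any other tested gene, with the next at 7.75 for Ighg2c. The q of H2-Q5 in the authors' deposited table was 0.00718, the smallest there and shared by 108 genes. By fold it ranked 17 among the 77 genes called lower. The sedentary interval was narrow, with a half-width of 7.44% of the FPKM. Among 7650 genes with at least 10 FPKM in both groups the median half-width was 26.2% in sedentary mice, and 1 gene (Gm14303, 2.13%) had a narrower interval than H2-Q5. In running mice the half-width of H2-Q5 was 31.1%, beside a median of 26.0%. What sets the narrow interval was not tested.

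Its closest relatives in sequence had nearly the same values in both groups. H2-Q4 had 75.4 FPKM (60.9 to 89.9) in sedentary and 75.2 (60.9 to 89.5) in running mice. H2-Q6 had 34.5 (27.8 to 41.2) and 32.7 (26.3 to 39.1) FPKM, and H2-Q7, the closest in sequence, had 24.2 (17.6 to 30.8) and 25.9 (19.4 to 32.5). None of these 3 pairs of intervals is apart. H2-Q10, which encodes a secreted class I molecule best known from liver, had 22.1 FPKM (16.9 to 27.3) and 18.2 (13.8 to 22.6), a log2 fold of -0.28. The authors' deposited table lists a p of 0.0421 and a q of 0.837 for it. H2-Q1 was low, at 1.40 and 1.72 FPKM, with a log2 fold of 0.28.

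Summed over the H2-Q genes, FPKM was 209 in sedentary and 164 in running mice, a ratio of 0.786. Without H2-Q5 the sums were 158 and 154, a ratio of 0.976. H2-Q5 made up 24.5% of the H2-Q sum in sedentary and 6.29% in running mice. It fell by 40.7 FPKM, while the summed difference of the other H2-Q genes, running minus sedentary, was -3.86 FPKM. The median log2 fold of the 6 tested H2-Q genes was -0.04, and 0.0036 with both groups rescaled to the same total. The order of levels in sedentary mice was H2-Q4, H2-Q5, H2-Q6, H2-Q7, H2-Q10 and H2-Q1, with the interval of H2-Q5 apart from those of H2-Q4 and H2-Q6. In running mice H2-Q5 came after H2-Q10, with its interval apart from that of H2-Q10, and the intervals of H2-Q7 overlapped with those of its neighbours H2-Q6 and H2-Q10 in that order.

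The genes around H2-Q5 were called about as often as all tested genes (0.445% higher and 0.497% lower). Within 100 kb of H2-Q5 lie 12 other genes of the table, of which 7 were tested and 0 called. Those tested were H2-Q1, H2-Q4, H2-Q6, H2-Q7, H2-Q10, the processed pseudogene Gm8741 (3.58 FPKM in sedentary and 2.71 in running mice) and Gm11131 (1.73 and 1.68), which overlaps H2-Q4 on the other strand. The untested ones were H2-Q2, H2-Q3, Gm18734, Gm8750 and Gm8752, at or near 0. Within 1 Mb 95 other genes were tested, and 1 was called, the extracellular matrix gene Tnxb, which rose from 1.13 to 2.55 FPKM (log2 fold 1.11). The median log2 fold of those 95 genes was -0.0049.

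**Figure D2:**
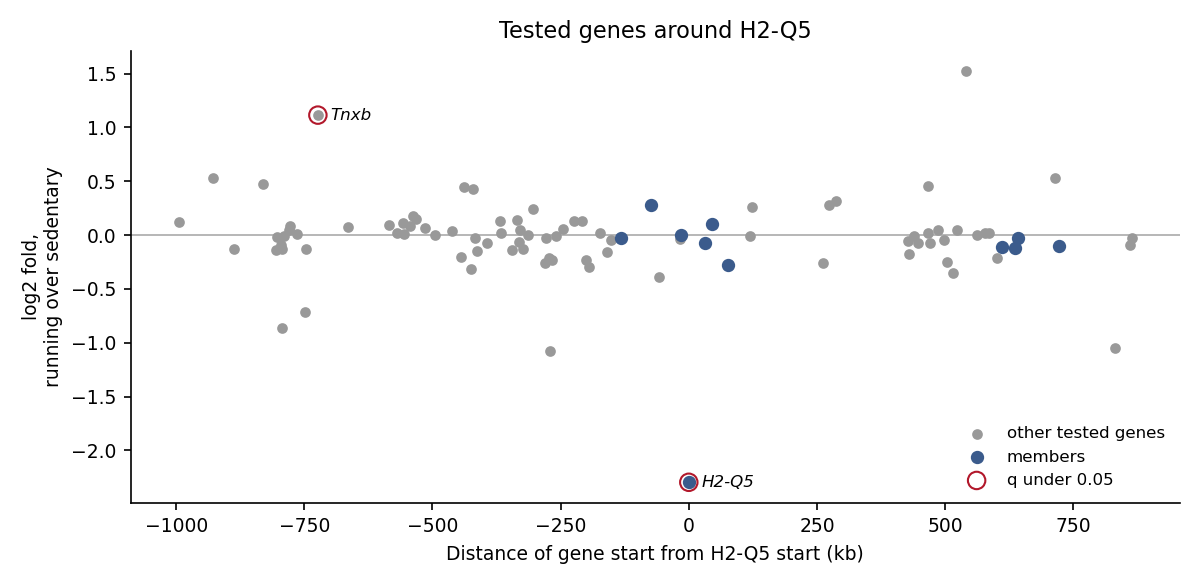
Log2 fold, running over sedentary, of tested genes on chromosome 17 against the distance of their start from that of H2-Q5 (kb); larger blue points are members, grey points other genes, and red rings mark q under 0.05. H2-Q5 lies at -2.30 while its neighbours H2-Q4, H2-Q6 and H2-Q7 lie between -0.07 and 0.10, and the other ring is Tnxb at 1.11.

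The plot of folds along the chromosome has H2-Q5 alone at the bottom. The lowest of the other genes in the window was Gm20522 (-1.08) and the highest Rbx1-ps (1.52), neither of them called.

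The classical class I heavy chains H2-K1 and H2-D1 present most class I peptides and were the most expressed heavy chains. H2-K1 (chromosome 17, 33996017 to 34000347, minus strand) had 653 FPKM (481 to 825) in sedentary and 615 (450 to 780) in running mice, a log2 fold of -0.09. H2-D1 (chromosome 17, 35262730 to 35267499, plus strand) had 514 FPKM (412 to 615) and 504 (405 to 602), a log2 fold of -0.03 that becomes positive with both groups rescaled to the same total. Neither was called, and the groups overlap over most of their range. The ratio of H2-K1 to H2-D1 was 1.27 in sedentary and 1.22 in running mice. Their sum was 1167 and 1119 FPKM, which is more than the H2-Q, H2-T and H2-M genes reach together. They share 9.63% (H2-K1) and 12.8% (H2-D1) of their 50-base stretches with other genes.

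H2-T genes encode nonclassical heavy chains. H2-T23, the heavy chain of Qa-1 that is read by NKG2 receptors on NK cells, had 93.5 FPKM (69.5 to 117) in sedentary and 86.2 (64.8 to 108) in running mice. H2-T24 had 31.6 and 29.3 FPKM, and H2-T22, a ligand of some gamma delta T cells, had 26.9 and 26.4. H2-T10, a close relative of H2-T22, had 4.09 and 3.80. All 4 log2 folds were negative, between -0.12 and -0.03, and none was called. That of H2-T22 turned positive with both groups at the same total. Their median was -0.11 and their summed FPKM 156 and 146. H2-T22 and H2-T10 share 34.5% and 32.9% of their 50-base stretches with other genes, so their separate levels are uncertain. The deposited tables place H2-T24, H2-T23 and H2-T22 at 1 shared locus.

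Of 12 H2-M genes 2 were tested. H2-M3, which presents peptides that start with N-formyl methionine, as bacterial and mitochondrial proteins do, had 9.45 FPKM (6.85 to 12.0) in sedentary and 9.52 (6.90 to 12.1) in running mice. H2-M9 had 2.14 and 2.36 FPKM. Their log2 folds were 0.01 and 0.13. The other 10 H2-M genes were at most 0.319 FPKM in either group, and 7 of them were listed at 0 in both. H2-M9 and H2-M3 share under 1% of their stretches with other genes, whereas the tested H2-Q and H2-T genes share from 3.17% (H2-T24) to 36.4% (H2-Q5).

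**Figure D3:**
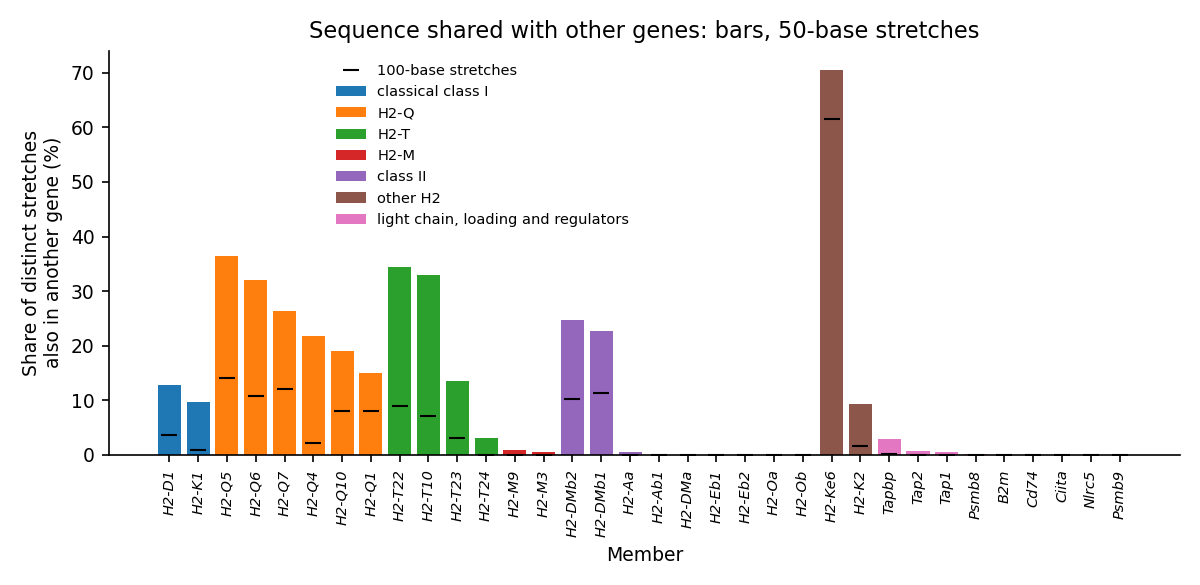
Share of distinct 50-base stretches (bars) and 100-base stretches (black ticks) in the transcripts of each tested member that also occur in transcripts of another gene, in percent; colours are the classes. H2-Q5 is at 36.4%, H2-T22 at 34.5% and H2-DMb2 at 24.8%, H2-T24 is low at 3.17%, and B2m, Cd74 and H2-Ab1 share none.

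The plot of shared sequence gives, for each member, the share of its stretches also found in other genes. It does not show from which stretches the fragments came. The highest bar is H2-Ke6 (70.5%), whose exons overlap those of the read-through gene Gm20427 on the same strand. H2-Ke6, a hydroxysteroid dehydrogenase gene that only carries an H2 symbol, had 34.0 FPKM in both groups. H2-K2, a pseudogene beside H2-K1, had 6.74 FPKM in sedentary and 6.34 in running mice.

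B2m, the light chain of every class I molecule, was the most expressed member. Its FPKM was 1259 (1019 to 1500) in sedentary and 1156 (936 to 1376) in running mice, a log2 fold of -0.12. Set against the summed class I heavy chains (1544 and 1441 FPKM), the ratio of B2m was 0.816 and 0.803. These sums include H2-Q5, and without it they were 1493 and 1430 FPKM. The immunoproteasome subunits, which replace constitutive subunits under interferon, were also present. Psmb8 had 87.6 FPKM (62.2 to 113) and 79.7 (56.7 to 103), and Psmb9 had 27.5 (16.2 to 38.8) and 23.9 (13.6 to 34.2). The chains of the peptide transporter had 27.0 and 25.5 FPKM for Tap1 and 31.3 and 29.2 for Tap2. Tapbp, or tapasin, which bridges the transporter and the class I heavy chain, had 64.5 FPKM (50.8 to 78.3) and 69.4 (53.0 to 85.8). None of these 6 genes was called. The 4 Tap and immunoproteasome genes all had negative log2 folds, -0.20 to -0.08 with a median of -0.12, and their summed FPKM was 173 and 158. Tap1 and Psmb9 start head to head and their exons overlap on opposite strands, and Tapbp exons overlap those of Zbtb22 on the same strand. The libraries keep strand, which separates the first pair only if counting used it, and no source used here says whether it did. For pairs on the same strand the split of fragments is uncertain.

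Class II genes had the lowest median log2 fold of the 7 classes, with no member called. Of the presenting chains, H2-Aa, H2-Ab1 and H2-Eb1 lay between 151 and 213 FPKM in sedentary mice. H2-Aa (chromosome 17, 34282744 to 34287823, minus strand) had 213 FPKM (173 to 252) in sedentary and 189 (155 to 224) in running mice. Its partner H2-Ab1 had 151 (123 to 180) and 136 (110 to 161). H2-Eb1, the E beta chain, had 176 (141 to 212) and 155 (124 to 185). The gene for its partner, H2-Ea, nonfunctional in this strain, was not tested (0.0293 and 0.0310 FPKM). H2-Eb2 was low at 1.33 and 0.999 FPKM. The 4 tested chains H2-Aa, H2-Ab1, H2-Eb1 and H2-Eb2 had negative log2 folds, -0.17, -0.16, -0.19 and -0.38 in that order. All 4 stayed negative under both rescalings tried. The group intervals overlap for each of them. Their p in the authors' deposited table ran from 0.0811 (H2-Eb2) to 0.152 (H2-Ab1), and their q was 0.998 or more. The ratio of H2-Aa to H2-Ab1 was 1.41 in sedentary and 1.40 in running mice, and that of H2-Eb1 to H2-Ab1 was 1.17 and 1.14. H2-Ab1 and H2-Eb1 share 0% of their 50-base stretches with another gene, and H2-Aa 0.488%.

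Helpers of class II loading were not called either. H2-DMa had 36.3 FPKM (16.4 to 56.2) and 32.1 (13.9 to 50.3), a log2 fold of -0.18, with exons that overlap those of Brd2 on the other strand. H2-DMb1 had 23.2 and 21.1 FPKM and H2-DMb2 15.8 and 16.0, and these copies share 22.7% and 24.8% of their 50-base stretches with other genes. H2-Oa and H2-Ob, which form the DM inhibitor DO, had 8.01 and 8.44 FPKM and 34.1 and 33.3 FPKM. The log2 fold of H2-Ob, -0.03, turned positive with both groups at the same total. Cd74 had 530 FPKM (432 to 628) in sedentary and 507 (412 to 602) in running mice, a log2 fold of -0.06. The ratio of Cd74 to H2-Aa was 2.49 and 2.67. Summed over the class, FPKM was 659 and 592, a ratio of 0.898, and the median log2 fold of the 9 tested genes was -0.16 with 7 negative. For the 5 tested DM and DO genes alone the median was -0.03.

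Ciita, the coactivator that class II transcription requires, had 4.28 FPKM (2.90 to 5.67) in sedentary and 4.26 (2.84 to 5.69) in running mice. Nlrc5, its counterpart for class I genes, had 15.7 (9.57 to 21.8) and 17.3 (11.0 to 23.5). Both work through proteins bound to a set of promoter boxes, the W, X and Y boxes, of which Y carries the letters CCAAT. Of the DNA-binding partners, Nfya, a subunit of the factor that binds CCAAT, rose from 3.67 FPKM (1.27 to 6.06) to 10.9 (5.16 to 16.7), a log2 fold of 1.55. The authors' deposited table gives it a q of 0.00718, yet its intervals overlap and its test statistic in the authors' deposited table was 2.60. The other subunits had 25.5 and 26.0 FPKM for Nfyb and 27.7 and 25.4 for Nfyc. Rfx5, Rfxap and Rfxank, the parts of the factor on the X box, had 8.47 and 7.91, 11.3 and 13.4, and 6.17 and 7.54 FPKM, and none was called.

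Promoters of the members were searched for letters of these boxes, and for interferon and NF-kappaB-like motifs, to describe what the members share. RefSeq promoter sequences (GRCm38.p6, 250 bases before to 50 after the start) were found for 24 of the 34 tested members, with H2-Q5 and H2-Ab1 among those not matched. On either strand CCAAT occurred in 22 of the 24, with 8 of 8 class II and 9 of 10 class I heavy chain genes, against 37.4% of all 32851 promoters. A member counted if any of its listed starts matched, while the share over all promoters counts each start, so they are not counted alike. TGACGC was in 4 (7.40% of all) and TGACGT in 4 (7.51%), letters of the X2 box. The interferon element (GAAA, 2 bases of any kind, GAAA) was in 3 (3.44%), B2m, H2-T22 and H2-T23. The NF-kappaB-like motif GGGGA, any base, TCCCC was in 3 (0.0487%), H2-D1, H2-K1 and H2-Q6, and GGGA, any base, TTCCC in 2 (0.359%), H2-Aa and H2-Q4. Such a match describes letters and does not show binding. Shown are the classical gene H2-K1 (chr17:34000298-34000597, minus strand), H2-Q4, the gene next to H2-Q5 (chr17:35379367-35379666, plus strand), the light chain B2m (chr2:122147437-122147736, plus strand) and the class II gene H2-Aa (chr17:34287774-34288073, minus strand). They run 5′ to 3′ on the gene's strand, and capitals mark every match of the 6 motifs on either strand, so that ATTGG is CCAAT read on the other one:
H2-K1: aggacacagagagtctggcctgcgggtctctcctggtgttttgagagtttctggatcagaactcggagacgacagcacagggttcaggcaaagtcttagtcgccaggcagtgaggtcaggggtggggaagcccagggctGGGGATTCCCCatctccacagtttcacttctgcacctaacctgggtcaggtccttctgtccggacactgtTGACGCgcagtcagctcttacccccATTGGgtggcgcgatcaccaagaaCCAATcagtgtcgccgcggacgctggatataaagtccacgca
H2-Q4: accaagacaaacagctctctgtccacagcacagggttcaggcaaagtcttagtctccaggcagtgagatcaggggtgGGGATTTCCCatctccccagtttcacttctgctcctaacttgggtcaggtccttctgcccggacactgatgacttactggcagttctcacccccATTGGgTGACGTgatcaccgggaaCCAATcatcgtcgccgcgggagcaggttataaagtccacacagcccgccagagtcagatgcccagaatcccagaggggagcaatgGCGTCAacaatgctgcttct
B2m: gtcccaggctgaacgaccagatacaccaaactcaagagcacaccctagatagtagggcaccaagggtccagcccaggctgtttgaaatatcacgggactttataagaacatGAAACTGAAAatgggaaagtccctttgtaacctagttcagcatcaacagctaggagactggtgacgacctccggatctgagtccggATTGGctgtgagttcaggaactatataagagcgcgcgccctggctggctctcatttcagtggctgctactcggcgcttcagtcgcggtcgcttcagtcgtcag
H2-Aa: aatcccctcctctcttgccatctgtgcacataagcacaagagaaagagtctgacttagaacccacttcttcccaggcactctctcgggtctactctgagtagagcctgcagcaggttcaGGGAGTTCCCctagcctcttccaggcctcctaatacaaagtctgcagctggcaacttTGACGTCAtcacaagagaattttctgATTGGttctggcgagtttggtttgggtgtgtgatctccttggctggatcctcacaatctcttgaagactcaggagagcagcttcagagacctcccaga

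H2-K1 and H2-Q4 both carry ATTGG and CCAAT within a short distance of each other, and an X2-like match before or between them. H2-Q4 also has GCGTCA, which is TGACGC read on the other strand, after them. B2m has the interferon element and 1 ATTGG. H2-Aa has 1 ATTGG after a TGACGTCA, in which both strands read TGACGT. The log2 folds of these 4 genes lay between -0.17 (H2-Aa) and -0.0035 (H2-Q4), and none was called.

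Of 46 tested genes of the pathway outside the member list, 2 were called higher and 0 lower, beside 0.445% and 0.497% of all tested genes. The first was Nfya. The other was Nrd1 (nardilysin, also named Nrdc), a peptidase that trims peptides in the cytosol, which rose from 56.9 FPKM (39.7 to 74.1) to 146 (129 to 163), with intervals apart. An unadjusted p under 0.05 was listed for 3 of the 46, near the 5.65% of all tested genes, among them Procr, with 1.03 and 2.25 FPKM and a q of 0.0857 in the authors' deposited table. The median log2 fold of the 46 genes was -0.02, and 0.02 with both groups at the same total. Of 13 tested class I processing and loading genes, which include the chaperone of the loading complex, Calr (282 FPKM in sedentary and 253 in running mice), 12 had a negative log2 fold, with a median of -0.08. Of these 12, 3 turned positive at the same total. Of 7 class II processing genes, 5 had a positive one, from Ctss (144 and 131 FPKM), the protease that cuts the invariant chain, at -0.14, to Ctsl (74.5 and 84.4) at 0.18. Among 17 regulators 8 were positive, with a median of -0.03.

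**Figure D4:**
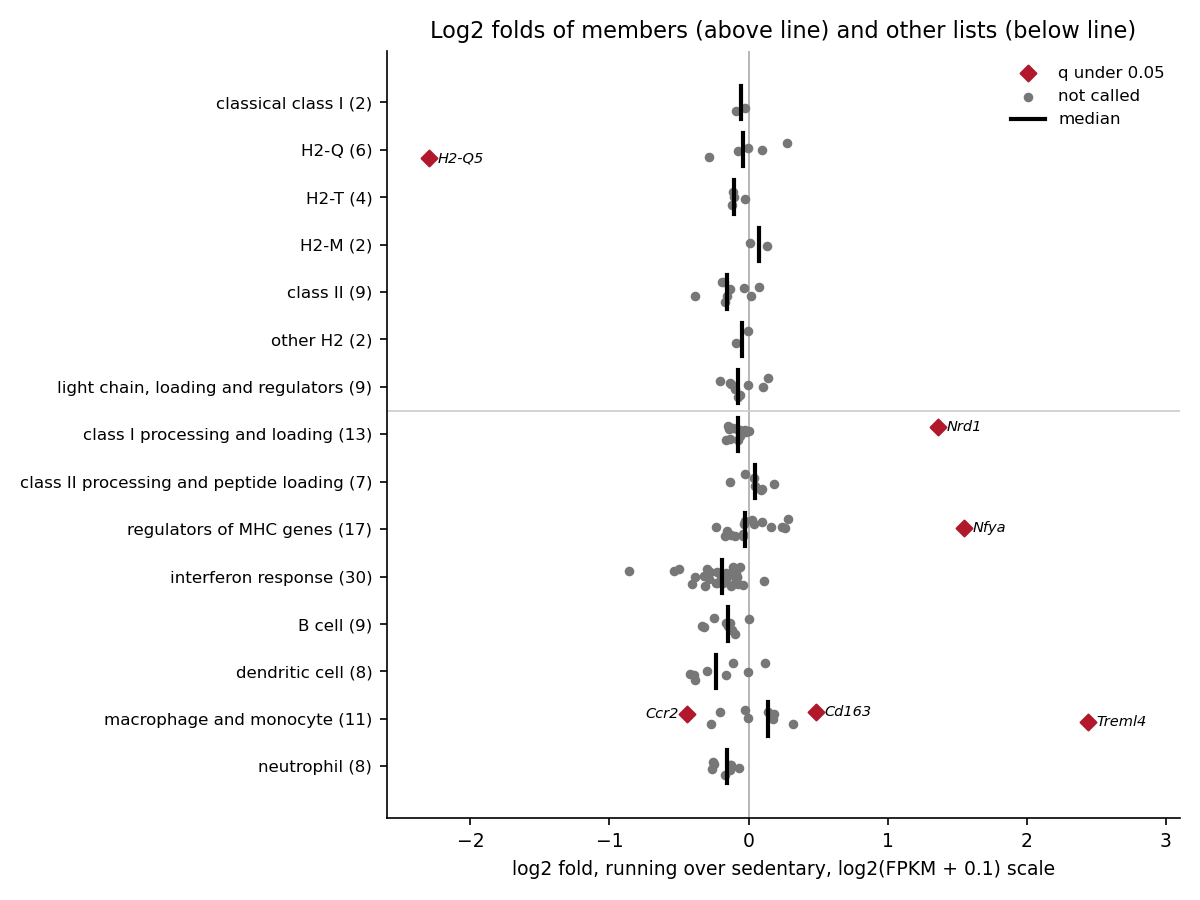
Log2 fold (running over sedentary) of each tested gene by class, with the number of tested genes in brackets; grey points were not called, red diamonds have q under 0.05 and bars are medians. Members lie above the grey line, where H2-Q5 (-2.30) is the only diamond. Other lists lie below it, where Nrd1 (1.36), Nfya (1.55) and Treml4 (2.44) stand apart from their lists. Cd163 and Ccr2 are diamonds there too.

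In the plot of folds by class most class II points sit left of 0, with a median of -0.16. The B cell and dendritic cell lists, whose cells carry class II, had negative medians (-0.15 and -0.23). So did the neutrophil (-0.15), interferon response (-0.19), class I processing (-0.08) and regulator lists (-0.03). Medians of the macrophage and monocyte list (0.14) and the class II processing list (0.05) were positive. Of 9 B cell markers 8 had a negative log2 fold, with a median of -0.15, a summed FPKM of 337 in sedentary and 300 in running mice and 0 called (0 at an unadjusted p under 0.05). The lowest fold was that of Cd22 (26.1 and 20.6). Of 8 tested dendritic cell markers 7 were negative, with a median of -0.23, a summed FPKM of 106 and 94.6 and 0 called (2 at an unadjusted p under 0.05). Over all tested genes 0.445% were called higher and 0.497% lower, and 5.65% had an unadjusted p under 0.05. Log2 folds of the tested dendritic cell markers ran from -0.42 (Ccr9) to 0.12 (Zbtb46). The cross-presenting dendritic cell markers Clec9a (4.10 and 3.65 FPKM) and Xcr1 (0.0325 and 0.0575, not tested) were low. Siglech of plasmacytoid cells had 17.4 and 14.1 FPKM. Macrophage and monocyte markers, whose cells also carry class II, went both ways, with 6 of 11 log2 folds positive and a median of 0.14. Of the 11, Cd163 (20.0 and 28.0 FPKM) and the low Treml4 (0.167 and 1.35) were called higher, and Ccr2 (57.3 and 42.2) lower. For each of these called genes the intervals overlap between the groups. The summed FPKM of the 11 markers was 3310 and 2912, to which the abundant Lyz2 and Ly6c2 contribute most. The part of these cell type levels in the class II values was not tested.

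Other marker lists also had medians away from 0. The 8 neutrophil genes all had negative folds, with a median of -0.15, a summed FPKM of 52363 in sedentary and 44535 in running mice and 0 called. Over all tested genes 0.445% were called higher and 0.497% lower. Of 6 tested plasma cell genes 5 had a negative log2 fold, with a median of -0.21, and the highest was Sdc1 at 0.08. Only Jchain of this list was called, lower, from 169 to 104 FPKM and with intervals apart. Medians were positive for osteocyte (0.25), osteoblast (0.24), muscle (0.28), adipocyte (0.58), endothelial (0.13), T and NK cell (0.09) and erythroid genes (0.03). Among these, Sost, Mepe, Adipoq, Fabp4, Cfd and Myh1 were called higher, with intervals apart only for Cfd and Myh1. Fgf23 was called lower (3.36 and 0.288 FPKM), with intervals apart. How far these shifts bear on H2-Q5 was not tested.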

How the data were processed

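Strand-specific libraries were made from polyadenylated RNA of femoral bone, per the labels' protocols. Tools listed in the submitters' processing notes, with no roles, are Cufflinks 2.2.1, SAMtools 1.10, HISAT2 2.2.1 and Trimmomatic 0.39, and the build is GRCm38. Column names of the 2 tables are those of Cuffdiff, per the file headers. For each gene the tables hold the authors' pooled FPKM of each group and the bounds of an interval. They also hold the log2 ratio the authors computed, and a score, p-value and q-value deposited by them. Of 55484 genes 15508 were tested. Depth per library is unknown from these tables, which have 0 columns of single libraries, so the authors' test stands in for one between mice.

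The members and lists were chosen with earlier results of these data known. Named were every called member, members with at least 1 FPKM in a group, the 2 members nearest the call threshold on the uncalled side, genes within 100 kb of a called member and, of other lists, called genes and the highest or lowest folds. Uncalled list genes beyond these, and Gm20522, Rbx1-ps, Tnxb and Gm14303, were named after their values were seen. Some list genes are not reported here by name. Positions are GENCODE vM21 (GRCm38), matched by Ensembl ID for all 51 members. Shared 50-base and 100-base stretches were counted over GENCODE transcripts, and the H2-Q transcripts were aligned with MAFFT 7.526. Folds were computed with pandas 2.3.3 in Python 3.11.15, with code tested on simulated data. Alternatives varied the q threshold, the genes adjusted over, pseudocount, low-value filter, scaling and the members summed.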

Additional observations from a re-analysis of the deposited data

How the results depend on the processing

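No paired analysis was possible because neither table separates the mice or numbers them, so leaving out a mouse and a fit with a replicate block were not run either. The counts of called members, 0 higher and 1 lower, were the same with q under 0.01 or 0.1, with p adjusted again over genes of at least 1 FPKM, and with calls kept only where intervals are apart or where the deposited statistic passes the normal cutoff for the unadjusted threshold. Each of 235 alternative values stayed on its side of the threshold and within 0.32 (log2) of its first value. That limit is the log2 size of the median sedentary half-width, 25.2% of the FPKM. It was taken over the 26 members with at least 10 FPKM in both groups. The limit is larger than each class median and than every uncalled member's log2 fold except that of H2-Eb2. Staying within it could not show that those small values are stable. Signs of uncalled folds changed in 9 values over 6 genes (H2-D1, H2-Q4, H2-T22, H2-Ob, H2-Ke6 and Ciita, the largest 0.03 in size) and in 3 summaries with both groups at the same total FPKM. These were the H2-Q median (0.0036), the summed ratio of other H2 genes (1.02) and the median of other pathway genes (0.02). The summed H2-Q ratio was 0.667 without H2-Q4 and 0.976 without H2-Q5. Depth per library and spread between mice are unknown, so the smallest difference that could have been called is not known.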

Other observations

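The interferon response list, many of whose genes share inducers with MHC genes, had 29 of 30 tested genes with a negative log2 fold, with a median of -0.19 and a summed FPKM of 503 in sedentary and 437 in running mice. None was called, beside 0.445% of all tested genes called higher and 0.497% lower. An unadjusted p under 0.05 was listed for 5, all lower in running mice, beside 5.65% of all tested genes. The lowest fold was that of the chemokine gene Cxcl10 (2.10 and 1.12 FPKM, -0.86) and the highest that of Ifi44 (0.11). Isg15, a ubiquitin-like protein induced by interferon, had 90.6 and 73.6 FPKM. With both groups at the same total FPKM, 28 of the 30 stayed negative and 2 were positive, beside 9201 positive of all 15508 tested genes. Bst2 of this list is also in that of dendritic cells.

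Class I-like molecules outside the H2 symbols had positive log2 folds in 5 of 5 tested genes, with a median of 0.11 and 0 called. Fcgrt, the neonatal Fc receptor chain that pairs with B2m, had 65.8 FPKM in sedentary and 76.1 in running mice. Cd1d1, which presents lipids to NKT cells, had 33.0 and 34.7, Hfe of iron sensing had 11.0 and 11.6, and Mr1, which presents microbial vitamin metabolites, had 4.87 and 5.25. Of 4 tested co-stimulation genes 0 were called, and Cd80 had 2.08 and 1.80 FPKM and Cd86 5.38 and 5.88. Beside both lists, 0.445% of all tested genes were called higher and 0.497% lower.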
